A study of Mus musculus with 12 samples.

Results

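The step from the DN3 to the DN4 stage of T cell development was measured in thymocytes of wild-type (WT) mice, as the difference between 2 WT DN4 arrays and 2 WT DN3 arrays. These 4 arrays are all those labelled with these 2 groups, out of 12 in the series. Every probe set with a single gene symbol entered, which gave 34958 of 45099 probe sets and 18194 genes. The series also holds 2 WT arrays of the later DP stage and 2 arrays at each stage from IkL/L mice, which the series title calls Ikaros-deficient. Ikzf1 encodes Ikaros, a DNA-binding regulator with zinc fingers that lymphocytes need. The labels give thymus as the tissue, the genotype and the stage. Strain, age, sex, sorting gates and the promoter or construct behind the IkL allele are not given in the sources used here.

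DN3 and DN4 thymocytes carry neither CD4 nor CD8. By textbook definition DN3 cells carry CD25, the interleukin-2 receptor alpha chain encoded by Il2ra, and DN4 cells have lost it. DN3 cells rearrange the T cell receptor beta gene under Notch signals from the thymic stroma. A cell whose beta chain pairs with pre-TCR alpha passes the checkpoint called beta-selection: it divides, survives, switches off its DN3 genes and begins to turn on the co-receptors. The comparison asks which genes change across that checkpoint in normal cells.

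Cells of 3 mice were combined for sorting. Labelled RNA was made from 15 to 100 ng of total RNA in 2 cycles of amplification. Nothing states that the arrays of a group came from separate pools, so the spread between the 2 arrays of a WT group may be technical. The p-values rest on the spread within groups pooled over all 6 groups of the series, the IkL/L groups included. Values are log2 signals from RMA, a method that corrects background, equalises arrays and summarises the probes of a set. The medians of the 4 arrays lay between 5.14 and 5.17, and all signals of the series between 2.68 and 14.7. A signal under the array median can be mostly background, and a difference from or to such a level is then a lower limit. The 2 WT DN3 arrays correlated with r = 0.995 across probe sets, as did the 2 WT DN4 arrays. As a sign of RNA length, the actin control read higher at its 3' than at its 5' end by 2.15 and 2.04 on the WT DN3 arrays and by 1.74 and 1.93 on the WT DN4 arrays. All 4 arrays carried both Xist, at 10.3 to 12.1, and the Y-linked gene Eif2s3y, at 7.78 to 8.73. In the IkL/L groups the 3 replicate 2 arrays had Eif2s3y at 2.82 to 3.12, against 8.39 to 9.01 on the replicate 1 arrays. The 2 arrays of each IkL/L group thus came from different cells, and their differences enter the pooled spread.

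The labels were set against markers of each stage. Il2ra, which defines the boundary between the stages, read 10.71 and 10.72 on the WT DN3 arrays and 5.70 and 6.25 on the WT DN4 arrays. Ptcra, which encodes pre-TCR alpha, read 10.69 and 10.83 in DN3 cells and 9.36 and 9.44 in DN4 cells. Cd3e, a signalling chain of the receptor complex, was present in both, at 10.44 and 10.39 against 9.92 and 9.89. The co-receptor gene Cd4 stayed low, at 5.71 and 5.77 against 6.35 and 6.20, while on the WT DP arrays it read 10.76 and 11.30. Cd8a was at 6.50 and 6.48 in DN3 cells, 7.05 and 7.88 in DN4 cells, and 12.69 and 13.01 in DP cells. The DN4 arrays thus had low Il2ra and Cd4 signals, with Cd8a above its DN3 signals on both.

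Across the step, far more genes fell than rose. With limma and a threshold of 0.05 on the Benjamini-Hochberg adjusted p, 1078 of 11649 tested genes were called (9.25%): 181 were higher in DN4 cells (1.55%) and 897 lower (7.7%). The median difference over all tested genes was -0.03 on the log2 scale. Of the called genes, 40 rose and 305 fell by at least 1, and 7 rose and 54 fell by at least 2. The median called rise was 0.67 and the median called fall -0.83. In all 1078 called genes both DN4 arrays lay on 1 side of both DN3 arrays, which 61.5% of all tested genes also did. Of the rises, 27 started below the array median on both DN3 arrays, and 80 of the falls ended below it on both DN4 arrays.

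How many genes were called depended on the arrays and on the model. With the replicate number as a block within each genotype 1397 genes were called, 275 higher and 1122 lower. There were 340 calls without WT DN3 replicate 1, 622 without WT DN3 replicate 2, 418 without WT DN4 replicate 1 and 577 without WT DN4 replicate 2. After a second quantile normalization 416 genes were higher and 811 lower, so rises made up 33.9% of the calls against 16.8% on the deposited values. That normalization moved the median of all genes from -0.03 to 0.05.

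**Figure D1:**
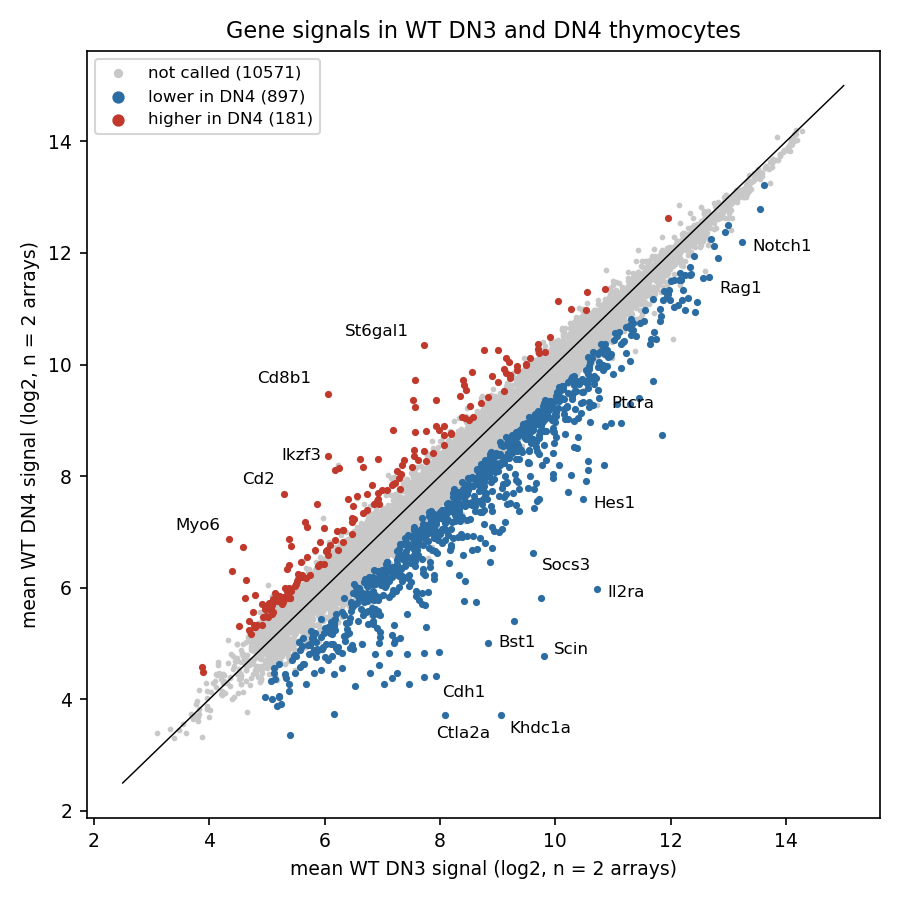
Mean log2 signal of each of 11649 tested genes on the 2 WT DN3 arrays (horizontal) and the 2 WT DN4 arrays (vertical), with a line of equal signal. The 897 genes called lower (blue) lie under the line and reach farther from it than the 181 called higher (red).

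Several Notch receptor and target genes fell, and no gene of that list rose. Notch signalling works by cleavage of a receptor whose inner part joins the DNA-binding protein RBPJ to switch on targets, and in DN3 cells it keeps Ptcra, Il2ra, Hes1 and Dtx1 expressed. Of 26 tested genes of the Notch list, 9 were lower (34.6%), 0 were higher and 17 were not called, and 21 of the 26 differences were below 0. The median was -0.49, against -0.03 over all genes. Shares given for this and the following lists stand against 7.7% lower and 1.55% higher among all tested genes. With 1 of the 4 arrays left out at a time, 6 or 7 were lower, and with the mean of all probe sets of a gene 8 were, at a median of -0.22.

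Among the receptors, Notch3 read 11.22 and 11.06 in DN3 cells and 8.84 and 9.08 in DN4 cells, a fall of 2.18 ± 0.15 (SE; limma adjusted p = 5.63e-06). Notch1, the main receptor of thymocytes, read 13.30 and 13.19 against 12.07 and 12.31, and fell by 1.05 ± 0.15 (adjusted p = 0.00123). The DN4 arrays lay below the DN3 arrays for both, with no overlap. The groups were also apart in all 1078 called genes and in 61.5% of all tested genes. Notch2 was at -0.52 (adjusted p = 0.076). The partner gene Rbpj fell by 0.71 (adjusted p = 0.014). Lfng, which encodes a glycosyltransferase that modifies Notch for its ligands, fell by 0.67 (adjusted p = 0.026), and Fbxw7, the ubiquitin ligase gene that limits cleaved Notch, by 0.53 (adjusted p = 0.047).

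Of the targets, 4 fell and others were not called. Hes1, a repressor gene, read 10.61 and 10.37 in DN3 cells and 7.24 and 7.92 in DN4 cells, a 7.49-fold fall (-2.91 ± 0.25, adjusted p = 2.8e-05). Il2ra fell 26.7-fold (-4.74 ± 0.21, adjusted p = 1.93e-07). Dtx1, which encodes the ubiquitin ligase Deltex, read 10.32 and 10.24 against 7.77 and 8.27 and fell by 2.26 ± 0.31 (adjusted p = 0.000836). A second bright probe set of Dtx1 was at -0.31 (adjusted p = 0.29 in a fit over all 34958 probe sets with 1 symbol, which called 1357 of them, 3.88%), so the size of its fall depends on the probe set. Ptcra fell 2.57-fold (-1.36 ± 0.19, adjusted p = 0.000944). Among those not called, Nrarp was at 0.31 (adjusted p = 0.25), Hes5 at -0.43 (0.097), Myc at -0.51 (0.205), Hey1 at 0.05 (0.87) and Heyl at 0.12 (0.64).

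The DNA just upstream of 3 of the fallen genes is shown as an example. The word marked in it stands in Ptcra and Lfng and not in Il2ra. It was held by only 3 of the 8 fallen Notch list genes with promoter sequence, so the genes shown do not stand for the rest. The sequences are the 250 bases before the RefSeq start on the GRCm38.p6 build, read 5′ to 3′ on the strand of the gene. Capitals mark TGGGAA or its reverse complement TTCCCA, letters found at the core of RBPJ sites. That word was chosen after results of these data were known.

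Ptcra, chr17:46763713-46763962, minus strand: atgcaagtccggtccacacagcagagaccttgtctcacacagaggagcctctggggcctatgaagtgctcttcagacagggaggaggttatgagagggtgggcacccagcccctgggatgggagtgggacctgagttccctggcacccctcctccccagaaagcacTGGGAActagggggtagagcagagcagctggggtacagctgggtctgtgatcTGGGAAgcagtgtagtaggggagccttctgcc

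Lfng, chr5:140607091-140607340, plus strand: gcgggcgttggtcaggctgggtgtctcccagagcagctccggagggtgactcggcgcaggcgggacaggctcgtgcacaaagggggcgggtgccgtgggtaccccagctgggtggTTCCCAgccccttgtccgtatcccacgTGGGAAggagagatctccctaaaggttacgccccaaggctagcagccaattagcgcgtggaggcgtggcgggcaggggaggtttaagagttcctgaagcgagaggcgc

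Il2ra, chr2:11642542-11642791, plus strand: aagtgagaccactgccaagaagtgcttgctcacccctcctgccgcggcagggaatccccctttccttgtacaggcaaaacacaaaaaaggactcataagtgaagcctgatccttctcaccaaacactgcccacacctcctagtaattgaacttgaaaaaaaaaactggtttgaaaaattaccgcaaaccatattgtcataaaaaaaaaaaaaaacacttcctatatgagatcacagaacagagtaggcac

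In Ptcra the word stood 84 and 32 bases before the start, both on the gene's strand. In Lfng it stood 135 bases before the start on the opposite strand and 108 bases before it on the gene's strand. One of the 2 matches in Lfng overlapped another word searched for, CACGTG. The Il2ra window held none. Of the 9 fallen genes of the Notch list, 8 had an entry in the promoter table and 3 of these held the word (37.5%), Rbpj being the third, against 6510 of 27025 genes in all (24.1%). Hes1 had no entry. The other words, searched on both strands, were held by few of the 8: CCAAT by 2 (37.5% of all promoters), TTTGAA by 1 (18.3%), CAGGTG by 1 (19.4%), CAGCTG by 2 (14.7%), CACGTG by 1 (6.86%), TTTCCCGC by 0 (1.03%) and TTTGGCGC by 0 (0.485%). These matches describe letters in a window and say nothing of whether a factor binds there.

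Beyond the Notch genes, the largest falls took in surface, actin and transcription factor genes of DN3 cells. Khdc1a read 9.31 and 8.79 in DN3 cells and 3.87 and 3.58 in DN4 cells, a 40.2-fold fall in signal (-5.33 ± 0.25, adjusted p = 2.58e-07). Scin, which encodes the actin-severing protein scinderin, read 9.96 and 9.64 against 4.74 and 4.81 (-5.03 ± 0.18, adjusted p = 5.01e-08). Cdh1, which encodes E-cadherin, read 8.06 and 7.80 against 4.40 and 4.42 (-3.52 ± 0.14, adjusted p = 8.85e-08). The DN4 signals of all 3 lie under the array median, so these falls are lower limits.

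Spib, an Ets-family transcription factor gene of lymphoid and plasmacytoid dendritic cells, fell by 3.14 ± 0.22 (adjusted p = 5.63e-06) from 7.92 and 8.05 to 4.61 and 5.09. Zeb2, a zinc-finger repressor gene, fell by 3.33 (adjusted p = 7.2e-07), Ctla2a by 4.37 (4.01e-06), Pld4 by 3.94 (7.2e-07) and the sodium channel subunit gene Scn4b by 3.88 (2.77e-06). Bst1, which encodes the surface enzyme CD157, fell by 3.82 (adjusted p = 3.47e-05), the protease inhibitor gene Serpinb1a by 3.19 (2.65e-05) and the myosin light chain gene Myl10 by 3.12 (2.41e-05). All 12 of the largest falls kept their calls when any 1 of the 12 arrays was left out. Khdc1a and Ctla2a have close relatives in the mouse genome, and the files do not say whether their probes tell these apart.

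The DN3 stage list holds genes known to mark that stage and was drawn up with results of these arrays known. Of its 28 tested genes 15 fell (53.6%), 1 rose and 12 were not called, with a median of -0.67. Apart from the genes above, the fallen members included Runx1, a core transcription factor gene of T cells (-1.16, adjusted p = 0.00112), and Cd24a, which encodes heat-stable antigen (-0.56, adjusted p = 0.0163). The member that rose was Id3. Without 1 of the 4 arrays, 11 or 12 members were lower.

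The largest rises were led by Cd8b1, which encodes the CD8 beta chain. It read 6.02 and 6.09 in DN3 cells and 9.40 and 9.55 in DN4 cells, a 10.7-fold rise (3.42 ± 0.22, adjusted p = 3.79e-06). Cd8a rose by less, 0.97 ± 0.23 (adjusted p = 0.0208), and lost its call without either WT DN3 array or without WT DN4 replicate 2. Other bright probe sets of Cd8a stood at 0.38, 1.04, 1.55 and 1.94, with adjusted p of 0.45, 0.065, 0.0011 and 0.0039 over all probe sets. Cd4 was at 0.53 (adjusted p = 0.122, 95% interval 0.10 to 0.96). Of these co-receptor genes Cd8b1 had the largest difference.

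Cd2, a surface adhesion receptor gene of T cells, read 4.82 and 5.76 against 7.51 and 7.83 and rose by 2.38 ± 0.34 (adjusted p = 0.00112). St6gal1, which encodes a sialyltransferase of cell-surface glycans, read 7.77 and 7.67 against 10.22 and 10.49 and rose by 2.63 ± 0.38 (adjusted p = 0.00107). Its other bright probe set rose by 0.64 (adjusted p = 0.0087). The actin-linked genes Myo6, encoding myosin VI (2.53, adjusted p = 2.34e-06), and Gsn, encoding gelsolin (2.30, adjusted p = 0.000233), rose while Scin, also actin-linked, fell. Ikzf3, which encodes the Ikaros relative Aiolos, read 6.02 and 6.35 against 7.98 and 8.22 and rose by 1.92 ± 0.16 (adjusted p = 2.51e-05).

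The other genes among the 12 largest rises were H2-Q2 (2.17), of the MHC class I region, the LIM-domain gene Pdlim4 (2.13), the transketolase relative Tktl1 (1.91), the Ets-family gene Etv5 (1.90), the HMG-box gene Tox2 (1.84) and the synaptotagmin gene Syt13 (1.70). H2-Q2 belongs to a family of near-identical genes and its reading may include its relatives. Etv5 lost its call without WT DN3 replicate 1 (adjusted p = 0.0565). Tox2 lost it whichever 1 of the 4 arrays was left out, at adjusted p from 0.0712 to 0.103. The other 10 kept theirs whichever array was left out.

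**Figure D2:**
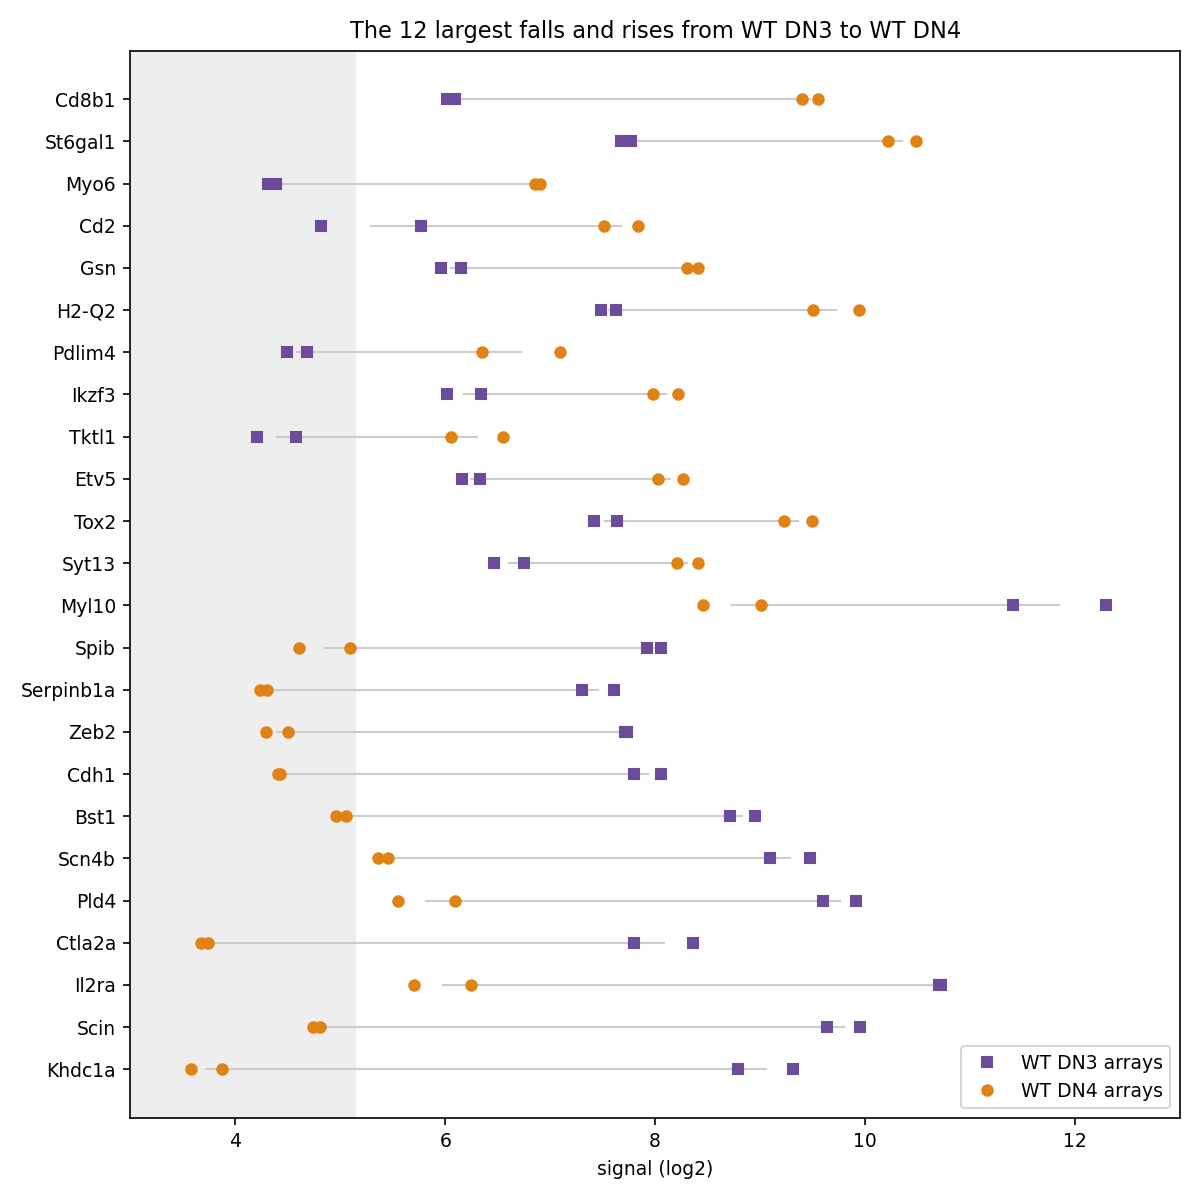
Log2 signal of the 12 genes with the largest rises (top) and the 12 with the largest falls (bottom) on each WT DN3 array (squares) and WT DN4 array (circles), with a line between the group means and grey where signals lie under the lowest array median, 5.14. Genes were picked only where both DN4 arrays lie on 1 side of both DN3 arrays, so that separation is no finding. Many falls end in the grey range.

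Genes of the pre-TCR and TCR complex fell or were not called. In the list of receptor chains 7 of 20 genes were tested, 4 fell (57.1%), and the median was -1.27. Cd3g, a CD3 chain gene, read 12.46 and 12.04 against 11.17 and 10.79 and fell by 1.27 ± 0.19 (adjusted p = 0.00122). Cd3e (-0.51, adjusted p = 0.161), Cd3d (-0.52, adjusted p = 0.12) and Cd247 (0.02, adjusted p = 0.97), which encode the remaining signalling chains, were not called. The probe sets annotated to Tcra (-1.28, adjusted p = 0.000406) and to the gamma chain gene Trgv4 (-1.49, adjusted p = 0.00425) also fell. Without WT DN3 replicate 1 or WT DN4 replicate 2 the list had 3 falls. Receptor genes are a multigene family, and which transcripts these probe sets read is uncertain. Trgv4 lost its call without WT DN3 replicate 1 and without WT DN4 replicate 2.

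In proximal TCR signalling 8 of 31 tested genes fell (25.8%) and 2 rose (6.45%), with a median of -0.26. Negative regulators stood among the falls: Cblb, a ubiquitin ligase gene (-1.55 ± 0.15, adjusted p = 6.58e-05), and Pag1, which encodes an adaptor that anchors the kinase Csk (-1.33 ± 0.20, adjusted p = 0.00132). So did the exchange factor gene Vav3 (-1.65 ± 0.17, adjusted p = 0.00012), Nfatc2 (-0.96, adjusted p = 0.01) and Plcg1 (-0.71, adjusted p = 0.0058). The tandem-SH2 kinase genes were called in opposite directions. Syk read 8.70 and 8.75 in DN3 cells and 7.49 and 8.06 in DN4 cells (-0.95 ± 0.21, adjusted p = 0.0141), whereas Zap70 read 9.13 and 9.15 against 9.85 and 9.85 (0.71 ± 0.14, adjusted p = 0.00721). The other rise was Sla, which encodes an adaptor that promotes receptor turnover (0.75, adjusted p = 0.0427). In Syk and Zap70 the 2 groups do not overlap, which is so for all 1078 called genes and 61.5% of all tested genes. Without 1 array, 3 to 6 genes of this list were lower: 3 without WT DN3 replicate 1 and without WT DN4 replicate 1, 4 without WT DN3 replicate 2 and 6 without WT DN4 replicate 2. Syk lost its call in the first 3 of these settings, and no gene of the list was called higher without WT DN3 replicate 1 or without either WT DN4 array, so the rises of Zap70 and Sla were lost there. Of the other bright probe sets of Pag1, 2 fell by 1.23 (adjusted p = 0.0127) and 0.67 (0.0375) and 1 stood at 0.24 (0.359), while those of Nfatc2 stood at -0.08 and 0.02.

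Genes known to respond to pre-TCR signals were split. Of 28 tested, 4 rose and 4 fell (14.3% each), and the median was 0.02. The rises were Cd2, the surface receptor gene Cd6 (0.85, adjusted p = 0.0112), Id3 (0.84, adjusted p = 0.0197) and the inhibitory receptor gene Pdcd1 (0.82, adjusted p = 0.029). Cd5, a surface marker of receptor signal strength, was at 0.93 (adjusted p = 0.063). The falls were Ctla4 (-1.59 ± 0.22, adjusted p = 0.000933), the immediate early gene Egr1 (-1.36 ± 0.31, adjusted p = 0.0185), the phosphatase gene Dusp2 (-0.83, adjusted p = 0.035) and the Ras pathway inhibitor gene Spry1 (-0.65, adjusted p = 0.032). Egr2 (-0.12, adjusted p = 0.87), Egr3 (0.18, adjusted p = 0.51) and Cd69 (-0.08, adjusted p = 0.94) were not called. Without WT DN3 replicate 1 there was 1 rise and 1 fall, without WT DN3 replicate 2 there were 3 and 2, without WT DN4 replicate 1 there were 3 and 1, and without WT DN4 replicate 2 there were 1 and 3.

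Immediate early genes, which also respond to tissue handling, had differences mostly below 0, in 20 of 24 tested. In the list of handling stress and immediate early genes 6 of 24 were lower (25%), 0 were higher and the median was -0.43. Jun read 10.74 and 10.44 against 8.90 and 9.58, Fos 12.22 and 11.89 against 10.85 and 11.21, and Egr1 10.31 and 10.49 against 8.63 and 9.45. In each of these the 2 DN4 arrays lay apart from each other, replicate 1 being the lower. The number of calls rested on those arrays: 6 without WT DN4 replicate 2, 3 without WT DN3 replicate 2, and 0 without WT DN4 replicate 1 or without WT DN3 replicate 1. The part of handling in these differences was not tested.

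Of 15 recombination and end joining genes 4 fell (26.7%), 0 rose and 11 were not called, with a median of -0.24. Rag1 and Rag2 encode the recombinase that cuts receptor gene segments, and Dntt the polymerase that adds bases at their joins. Rag1 read 12.56 and 12.76 in DN3 cells and 11.52 and 11.63 in DN4 cells, a 2.13-fold fall (-1.09 ± 0.17, adjusted p = 0.00174). Rag2 read 9.13 and 8.94 against 8.49 and 8.29 (-0.64 ± 0.18, adjusted p = 0.0483). Dntt stayed high, at 13.65 and 13.59 against 13.21 on both (-0.41 ± 0.11, adjusted p = 0.043), and the DNA end kinase gene Prkdc fell by 0.57 (adjusted p = 0.0193). These are the 4 that fell. Rag1 alone was called whichever 1 of the 4 arrays was left out, and 2 genes were called on median-centred arrays or after the second quantile normalization.

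Transcription factor genes of the T lineage went both ways. Of 30 tested, 3 rose (10%) and 8 fell (26.7%), and their median of -0.10 became 0.01 after the second quantile normalization. The rises were Ikzf3, Tox2 and Rora (0.99, adjusted p = 0.0018). Beside Spib and Runx1, Ikzf4, which encodes the Ikaros relative Eos, fell from 6.97 and 6.91 to 5.76 and 5.90 (-1.11 ± 0.14, adjusted p = 0.000399). Ikzf1 was at 11.83 and 11.93 against 11.78 and 11.88 and was not called (-0.05, 95% interval -0.32 to 0.22, adjusted p = 0.852). Another bright probe set of Ikzf1 stood at 0.54, also without a call (limma adjusted p = 0.066 over all probe sets). Gata3 (-0.09), Lef1 (-0.07), Tox (-0.11) and Ets1 (-0.05) also missed the call, at adjusted p from 0.79 to 0.91. Falls in this list numbered 3 without WT DN3 replicate 1, 6 without WT DN3 replicate 2, 4 without WT DN4 replicate 1 and 5 without WT DN4 replicate 2. Probe sets of Runx1 disagreed: 1 other bright set fell by 1.66 (adjusted p = 0.00012) and 4 stood between -0.56 and 0.06 without a call. Of 12 E protein and Id genes, Id3, an inhibitor of E proteins, rose, the E protein gene Tcf4 (-0.65, adjusted p = 0.0157) and the corepressor gene Cbfa2t3 (-0.65, adjusted p = 0.00822) fell, and Id2 was at -1.24 (adjusted p = 0.053). Without WT DN3 replicate 1 or WT DN4 replicate 2 none of these 12 genes was called.

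Cell cycle genes showed small differences, mostly upward, in cells that already carried high signals of division genes at DN3. Mki67, a marker of cycling cells, read 12.81 and 13.03 in DN3 cells and 12.87 and 12.98 in DN4 cells (0.00, 95% interval -0.32 to 0.32, adjusted p = 0.999). Of 62 tested mitosis and spindle genes 58 had a difference above 0, and the median was 0.30, against -0.03 over all genes. Of the 62, 3 rose (4.84%) and 0 fell. The called genes were Ndc80, of the kinetochore (0.74, adjusted p = 0.0218), the phosphatase gene Cdc25c (0.68, adjusted p = 0.0194) and the centromeric histone gene Cenpa (0.59, adjusted p = 0.0307). After the second quantile normalization 11 were called and 62 were above 0, with a median of 0.41. Without 1 array the count was 0 (WT DN3 replicate 1 or WT DN4 replicate 2), 1 (WT DN4 replicate 1) or 2 (WT DN3 replicate 2).

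Replication genes shifted less. Of 51 tested, 41 were above 0, the median was 0.14, and 3 were called higher (5.88%). These were Orc6 (0.51, adjusted p = 0.043), Mcm10 (0.49, adjusted p = 0.0405) and Cdc6 (0.45, adjusted p = 0.0471), all of the machinery that licenses or fires origins. None of the 3 was called whichever 1 of the 4 arrays was left out or on median-centred arrays, and 7 replication genes were called after the second quantile normalization.

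Of 29 tested regulators of the G1 phase 2 rose (6.90%), 3 fell (10.3%) and 24 were not called, with a median of 0.21. Cdkn1a, which encodes the cyclin-dependent kinase inhibitor p21, read 9.77 and 9.65 in DN3 cells and 7.44 and 7.72 in DN4 cells, a 4.38-fold fall (-2.13 ± 0.18, adjusted p = 3.11e-05). Ccne1, encoding cyclin E1, read 9.86 and 10.22 against 11.02 and 11.25 and rose 2.14-fold (1.10 ± 0.17, adjusted p = 0.00165). The D-cyclin kinase gene Cdk6 fell by 0.91 (adjusted p = 0.00274), the E2F partner gene Tfdp2 by 0.84 (0.00502), and the atypical E2F gene E2f8 rose by 0.72 (0.0168). Ccnd3, the cyclin D gene tied to beta-selection, was at 0.41 (95% interval -0.14 to 0.96, adjusted p = 0.363), Ccnd2 at -1.58 (0.09) and the inhibitor gene Cdkn1b at -0.20 (0.564). Without WT DN3 replicate 1 there was 1 rise and 1 fall, and Cdk6, Tfdp2 and E2f8 were not called there. E2f8 also lost its call without WT DN3 replicate 2, and both it and Tfdp2 did without WT DN4 replicate 1. With the mean of all probe sets of a gene 5 rose and 3 fell.

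Few growth genes were called. Beta-selected cells are known to enlarge, and Myc, metabolic and ribosome genes serve growth. Myc read 10.58 and 10.59 against 9.99 and 10.16 and was not called (95% interval -1.01 to -0.01 before adjustment). None of 41 ribosome biogenesis genes was called, with differences between -0.34 and 0.33, and none of 51 nuclear subunits of oxidative phosphorylation, with differences between -0.70 and 0.37. In glucose uptake and glycolysis 3 of 26 fell (11.5%): the muscle-type enzyme gene Pgam2 (-1.51, adjusted p = 0.00793), Aldoc (-1.29, adjusted p = 0.00496) and Pdk1 (-0.52, adjusted p = 0.0373), which encodes a kinase that restrains pyruvate oxidation. The list had 2 falls without WT DN3 replicate 1 and 1 without any other of the 4 arrays. The glucose transporter gene Slc2a1 was at 0.13 (adjusted p = 0.72).

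Among 19 amino acid and iron uptake genes only Slc38a1, a glutamine transporter gene, was called lower (-0.49, adjusted p = 0.0496), and in no fit that left out 1 of the 4 arrays. The transferrin receptor gene Tfrc was at -0.18 (adjusted p = 0.575) by its brightest probe set, while 4 other bright ones lay between 0.34 and 1.17. The mean of its probe sets was called higher, at 0.46 (adjusted p = 0.0476). In the Myc and Max network 3 of 12 tested genes fell (25%) and 1 rose (8.33%), with a median of -0.16. The falls were Mxd4 (-0.82, adjusted p = 0.00928), Mga (-0.55, adjusted p = 0.026) and the glucose-sensing partner gene Mlxip (-0.75, adjusted p = 0.00404). The rise was Mxd3 (0.61, adjusted p = 0.0298). Other bright probe sets of Mxd4 stood at -0.16 and -0.45 and those of Mxd3 at 0.42 and 0.32, without a call. That of Mga fell by 0.66 (adjusted p = 0.0114 over all probe sets). With the mean of probe sets 0 of the 12 genes rose and 1 fell. None of those 12 was called without WT DN3 replicate 1 or without WT DN4 replicate 1.

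In the cytokine receptor and JAK-SOCS list 10 of 36 tested genes fell (27.8%), 2 rose (5.56%) and 24 were not called, with a median of -0.42. Its largest fall was that of Il2ra, given above, and the next were feedback inhibitors. SOCS proteins are induced by cytokine receptors through STAT factors and shut the same receptors down. Socs3 read 9.77 and 9.46 in DN3 cells and 6.53 and 6.71 in DN4 cells, a 7.99-fold fall (-3.00 ± 0.18, adjusted p = 2.34e-06). Socs2 read 7.42 and 7.44 against 4.95 and 4.68 (-2.61 ± 0.19, adjusted p = 7.17e-06). Cish fell by 1.17 (adjusted p = 0.0114) and the stem cell factor receptor gene Kit by 1.25 (0.0131). Probe sets of Socs3 differed in size, at -2.95 and -0.70, and another bright probe set of Kit stood at 0.06. Kit lost its call whichever 1 of the 4 arrays was left out, and Cish without WT DN3 replicate 1 or either WT DN4 array.

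Il7r, whose product carries the survival signal of early thymocytes, read 10.61 and 10.85 against 9.32 and 9.23 and was not called (-1.45, 95% interval -2.51 to -0.40, adjusted p = 0.0873). Its other bright probe set fell by 1.72 (adjusted p = 0.00325 over all probe sets), and the mean of its probe sets by 1.58 (0.0187). The brightest probe set was called at the same difference when the 6 WT arrays (adjusted p = 0.00316) or the 4 arrays of the step (0.000167) were fitted alone, and not when 1 of the 4 arrays was left out (0.26 to 0.29). The rises were the receptor genes Ifngr2 (1.02, adjusted p = 0.00287) and Il10rb (0.56, adjusted p = 0.037). Of rises 0 were called without WT DN3 replicate 1 and 1 without any other of the 4 arrays. The number of falls was 3 without WT DN3 replicate 1, 6 without WT DN3 replicate 2 and 5 without either WT DN4 array.

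Of 32 tested interferon response genes 14 fell (43.8%), 1 rose (3.12%), 27 were below 0, and the median was -0.57. Ifih1, which encodes the RNA sensor MDA5, read 9.62 and 9.51 against 8.03 and 7.99 (-1.56 ± 0.15, adjusted p = 7.51e-05). Trim30a fell by 1.46 ± 0.18 (adjusted p = 0.000395), the guanylate-binding protein gene Gbp2 by 1.47 ± 0.25 (0.00327), Parp14 by 1.23 ± 0.17 (0.000952) and Oasl2, from signals near the array median, by 1.30 ± 0.23 (0.00377). Samhd1, which encodes a nuclease that lowers nucleotide pools, rose by 0.80 (adjusted p = 0.0295), and was called in no fit that left out 1 of the 4 arrays. Gbp2 was not called without WT DN3 replicate 1, nor Oasl2 without WT DN3 replicate 1 or WT DN4 replicate 1. Falls numbered 4 without WT DN3 replicate 1, 6 without WT DN4 replicate 1 and 10 without either of the other 2 arrays.

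Genes of the Bcl2 family went both ways. Bcl2 read 11.41 and 10.72 in DN3 cells and 9.37 and 9.23 in DN4 cells, a 3.40-fold fall (-1.77 ± 0.27, adjusted p = 0.00176), and of its 4 other bright probe sets 2 fell, by 1.79 and 0.72 (adjusted p = 0.00123 and 0.028 over all probe sets), and the other 2 were below 0 without a call (0.0812 and 0.147). Mcl1, also anti-apoptotic, fell by 0.72 ± 0.15 (adjusted p = 0.00931). Of its other bright probe sets some fell, by 0.72 and 0.70 (adjusted p = 0.021 and 0.0153 over all probe sets). The rest stood at -0.68, -0.37 and -0.13 without a call. Bcl2l1, which encodes Bcl-xL, read 8.34 and 8.30 against 8.65 and 8.97, just short of a call (0.49 ± 0.14, adjusted p = 0.0534). Of the pro-apoptotic members, Bmf fell by 1.37 (adjusted p = 0.0268) and Bid rose by 0.50 (0.0404), and neither was called in any fit that left out 1 of the 4 arrays. Bid was also not called on median-centred arrays. Bcl2l11, which encodes Bim, was at -0.35 (0.24). In all 5 of 17 fell (29.4%) and 1 rose (5.88%), with a median of -0.03. Only Bcl2 was called lower without WT DN3 replicate 1 or WT DN4 replicate 1, against 4 without WT DN3 replicate 2 and 3 without WT DN4 replicate 2. Other bright probe sets of Bmf and Bcl2l2 stood at 0.00.

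Of 22 tested p53 target genes 3 fell (13.6%), with a median of -0.22: Cdkn1a, Trp53inp1 (-0.74, adjusted p = 0.0193) and Ccng1 (-0.43, adjusted p = 0.0487). Mdm2 (-0.01), Bbc3 (0.08) and Fas (0.24), other well-known targets, were not called. Another bright probe set of Trp53inp1 stood at -0.08 and those of Ccng1 at 0.04 and -0.35, without a call over all probe sets. That of Cdkn1a fell by 1.94 (limma adjusted p = 0.00282 over all probe sets). With the mean of probe sets 1 gene of the list was called lower. Cdkn1a was the single gene of that list called without WT DN3 replicate 1, without WT DN4 replicate 1 or without WT DN4 replicate 2.

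Adhesion and migration genes showed single changes. Of 22 tested integrin, cadherin and linked genes, Itgb2, the beta-2 integrin chain gene, rose by 1.10 ± 0.21 (adjusted p = 0.00647) and the tetraspanin gene Cd81 by 1.22 ± 0.22 (0.00503). Itga4, the alpha-4 integrin gene, fell by 0.88 ± 0.13 (adjusted p = 0.00147), as did Cdh1. Its catenin partner genes Ctnnb1 (-0.12), Ctnna1 (-0.38) and Ctnnd1 (0.20) were not called. Both rises lost their calls without WT DN3 replicate 1 or WT DN4 replicate 2. Of 13 chemokine and migration receptor genes only Cd24a was called, and in no fit that left out 1 of the 4 arrays. Ccr9, the receptor gene for the thymic chemokine CCL25, read 11.23 and 10.87 against 11.42 and 11.55 (0.44, adjusted p = 0.114), and Ccr7 was at 1.03 (0.081).

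**Figure D3:**
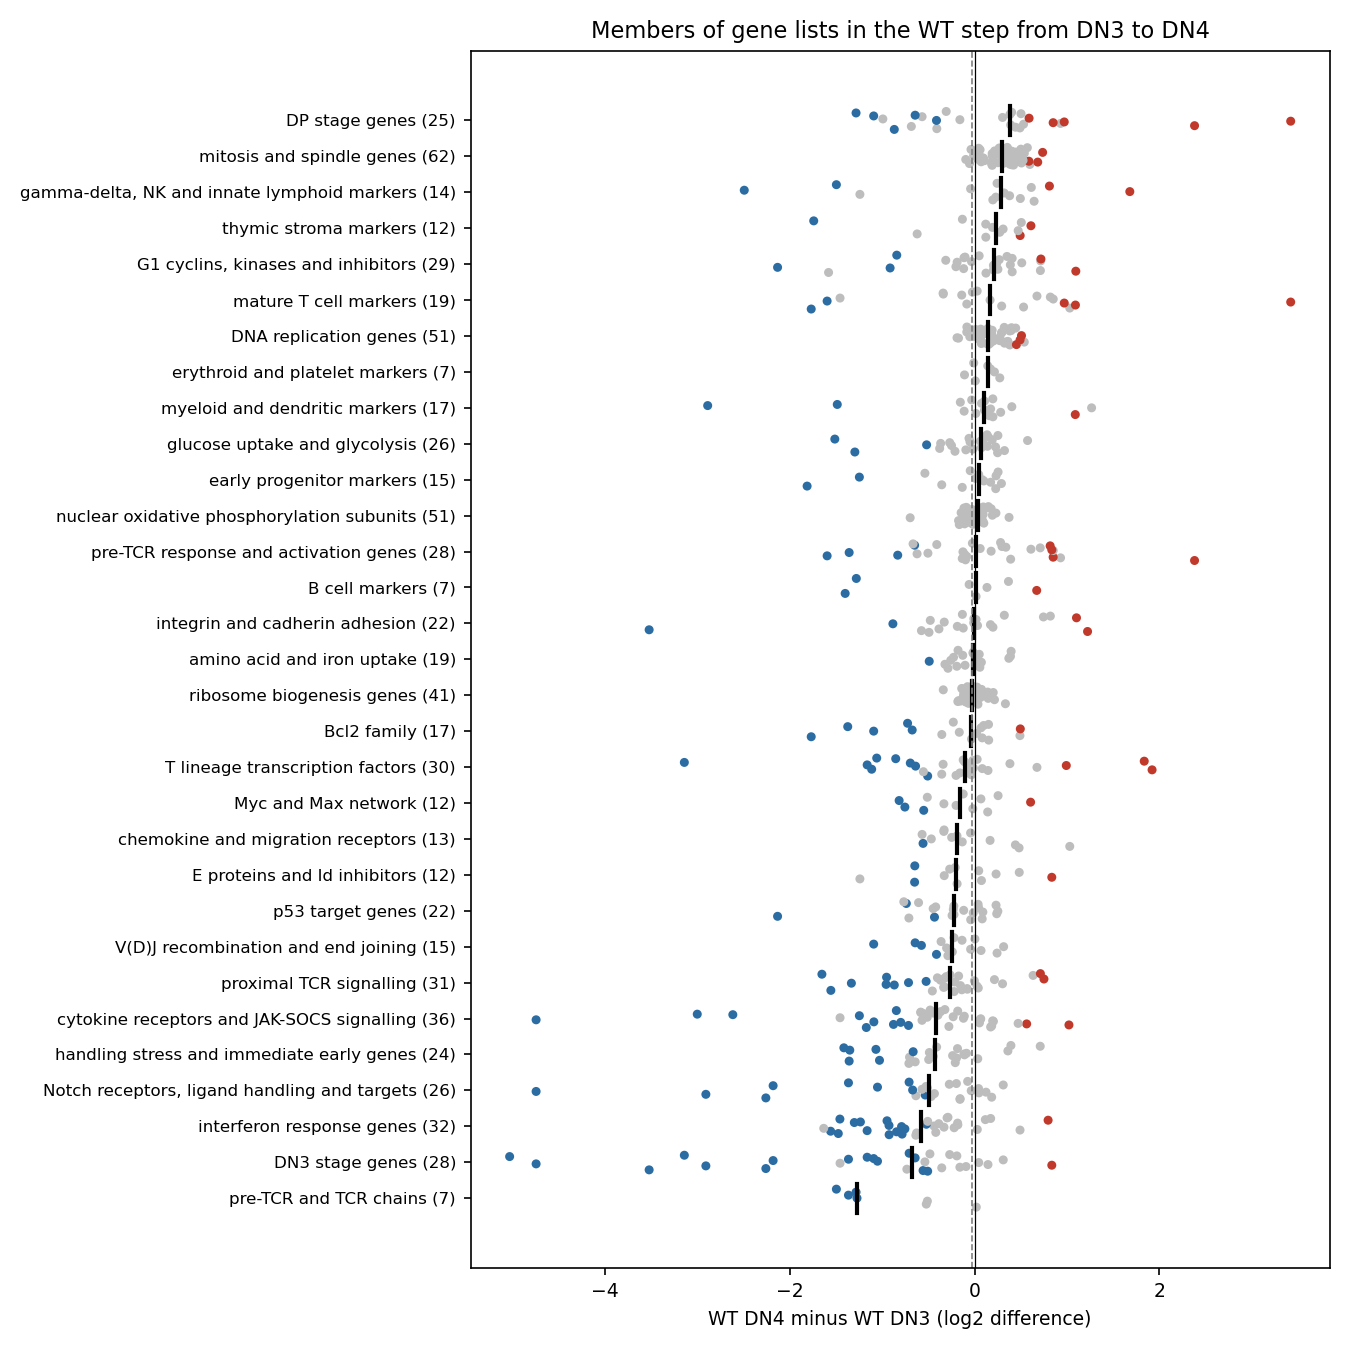
Log2 difference, WT DN4 minus WT DN3, of every tested member of 31 gene lists (number tested in brackets), with called rises in red, called falls in blue, uncalled genes in grey, a black bar at each list's median and a dashed line at the median of all genes, -0.03. The receptor chain, DN3 stage, interferon and Notch lists lie farthest to the left, and the DP stage and mitosis lists have the highest medians, 0.38 and 0.30.

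Genes of the following DP stage went both ways. Of 25 tested DP stage genes 5 rose and 5 fell (20.0% each), and the median was 0.38. The rises were Cd8b1, Cd2, Cd8a, Cd6 and Mns1, while the falls included Rag1, Rag2, Dntt and Tcra, which DP cells use to rearrange and express the alpha chain. After the second quantile normalization 9 rose and 3 fell. Leaving out 1 array gave 2 rises and 2 falls (WT DN3 replicate 1 or WT DN4 replicate 2), 3 and 3 (WT DN3 replicate 2) or 4 and 2 (WT DN4 replicate 1).

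Markers of other cells that a gate without CD4, CD8 and CD25 could hold were measured beside these results. In bulk RNA, fewer cells of a type and less RNA per cell cannot be told apart. Of 24 matched gamma-delta, NK and innate lymphoid markers 10 lay below the array median on all 4 arrays and 14 were tested. Their mean log2 signal was 7.34 and 7.28 on the DN3 arrays and 7.24 and 7.43 on the DN4 arrays, and 2 rose and 2 fell. Nkg7, a cytotoxic granule gene, read 10.38 and 10.05 against 7.53 and 7.92 (-2.49 ± 0.22, adjusted p = 3.47e-05). The transcription factor gene Maf read 7.63 and 7.50 against 9.08 and 9.41 (1.68 ± 0.29, adjusted p = 0.0039), and Tbx21 rose by 0.81 (0.0157). Sox13 (0.61, adjusted p = 0.1), Blk (0.64, 0.15) and Zbtb16 (0.24, 0.32), which mark gamma-delta or innate-like T cells, were not called.

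Of 25 matched myeloid and dendritic markers 17 were tested and 9 lay below the median on all 4 arrays. Their mean signal was 6.12 and 6.22 in DN3 cells and 6.05 and 6.22 in DN4 cells. The lysozyme genes Lyz1 (-2.89 ± 0.59, adjusted p = 0.0101) and Lyz2 (-1.48 ± 0.28, adjusted p = 0.00611) fell, and Cd74, the MHC class II chaperone gene, rose by 1.09 ± 0.20 (0.005). Lyz1 and Lyz2 are near-identical copies, so their readings are not independent. H2-Aa, of the same class II pathway as Cd74, was at 1.27 (0.11) and the granulocyte gene S100a8 at -0.15 (0.951).

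The B cell markers Cd79b (-1.40, adjusted p = 0.00347) and Vpreb1 (-1.28, adjusted p = 0.00401) fell and Ighm rose by 0.67 (0.011), while Pax5 (-0.06) and Cd22 (0.02) were not called. Their list mean was 7.29 and 7.33 against 6.96 and 7.21, and 6 of 13 matched B genes lay below the median on all 4 arrays. In stroma the receptor gene Pdgfrb fell by 1.74 (adjusted p = 0.00292), and Kdr (0.61, 0.0183) and Ccl25 (0.49, 0.0455) rose, with list means of 5.89 and 5.91 against 5.81 and 6.10. The epithelial genes Epcam (0.19), Krt5 (0.12) and Aire (0.12) were not called.

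Of 15 early progenitor markers Cd93 (-1.81, adjusted p = 4.28e-06) and Kit fell, with list means of 6.19 and 6.25 against 6.02 and 6.06. Mature T cell markers had means of 7.43 and 7.35 against 7.52 and 7.70, with 3 of 19 higher and 2 lower. The CAMPATH-1 antigen gene Cd52 rose by 1.09 (adjusted p = 0.0229) and Ms4a4b was at -0.14 (0.93). None of 7 erythroid and platelet markers was called, and their means were 5.69 and 5.94 against 5.84 and 5.98. Many of these calls rested on single arrays. Tbx21, Cd52, Kdr, Ccl25 and Kit were called in no fit that left out 1 of the 4 arrays, and Cd74, Cd79b, Vpreb1, Pdgfrb and Lyz1 were not called without WT DN4 replicate 1. Lyz1 and Ighm were not called without either WT DN3 array, Lyz2 without WT DN3 replicate 1, and Ighm and Lyz2 without WT DN4 replicate 2. Nkg7, Maf and Cd93 kept their calls in every such fit. The part of such cells in the differences reported here was not tested.

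The same step in IkL/L thymocytes shared no array with the WT step. Both steps were tested in the same fit with the same pooled variance for each gene, so their calls are not independent. In the IkL/L step 512 genes were called (4.4%), 140 higher (1.2%) and 372 lower (3.19%). Both steps called 337 genes, which is 31.3% of the WT calls and 65.8% of the IkL/L calls, and 336 of these had the same sign. Of the 1078 genes called in the WT step 985 (91.4%) had the same sign in the IkL/L step, against 60.6% of all tested genes. Across genes the differences of the steps correlated with r = 0.667, and genes are not independent replicates. Il2ra was at -5.22 in IkL/L cells, Hes1 at -2.21, Socs3 at -2.59, Bcl2 at -1.75 and Cd8b1 at 2.33, each called there too.

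Some genes called in WT cells were not called in IkL/L cells, but a missing call is no test of a difference. Ptcra was at -0.36 (adjusted p = 0.383), Notch1 at -0.27 (0.428), Rag1 at -0.15 (0.741) and Etv5 at 0.50 (0.522). In the direct test of the step between genotypes, limma called 6 genes (0.0515%), 3 in each direction (0.0258%), and 1126 had an unadjusted p under 0.05. Scin fell by 2.56 in IkL/L cells against 5.03 in WT cells, a difference of steps of 2.47 ± 0.25 (adjusted p = 0.00221). Cdh1 fell by 0.87 against 3.52 (2.65 ± 0.20, adjusted p = 0.000214). The DN4 signals of both genes lie under the array median in both genotypes, as do the IkL/L DN3 signals of Cdh1, 4.41 and 4.23, so each fall is a lower limit and the difference of steps is one of signals only.

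The largest difference of steps was in Lmcd1, which encodes a LIM-domain cofactor. It read 4.51 and 4.64 on the WT DN3 arrays and 4.68 and 4.94 on the WT DN4 arrays, but 10.25 and 9.81 against 6.75 and 6.02 in IkL/L cells (-3.88 ± 0.31, adjusted p = 0.000273). These WT signals lie under the array median, so a fall in WT cells may not be visible. Scin, Cdh1 and Lmcd1 kept the call whichever array was left out. The other 3 were Med12l, Cttnbp2nl and Serpinh1. With 1 array left out, between 3 and 20 genes were called: 3 without WT DN3 replicate 1, WT DN4 replicate 1 or either IkL/L DN4 array, 20 without IkL/L DN3 replicate 1 and 16 without IkL/L DN3 replicate 2. With the replicate block within genotype 14 were called. A setting added after the data were seen left out the 3 IkL/L replicate 2 arrays. It leaves 1 array in each IkL/L group, so the IkL/L step has no spread of its own there and its calls are not given.

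**Figure D4:**
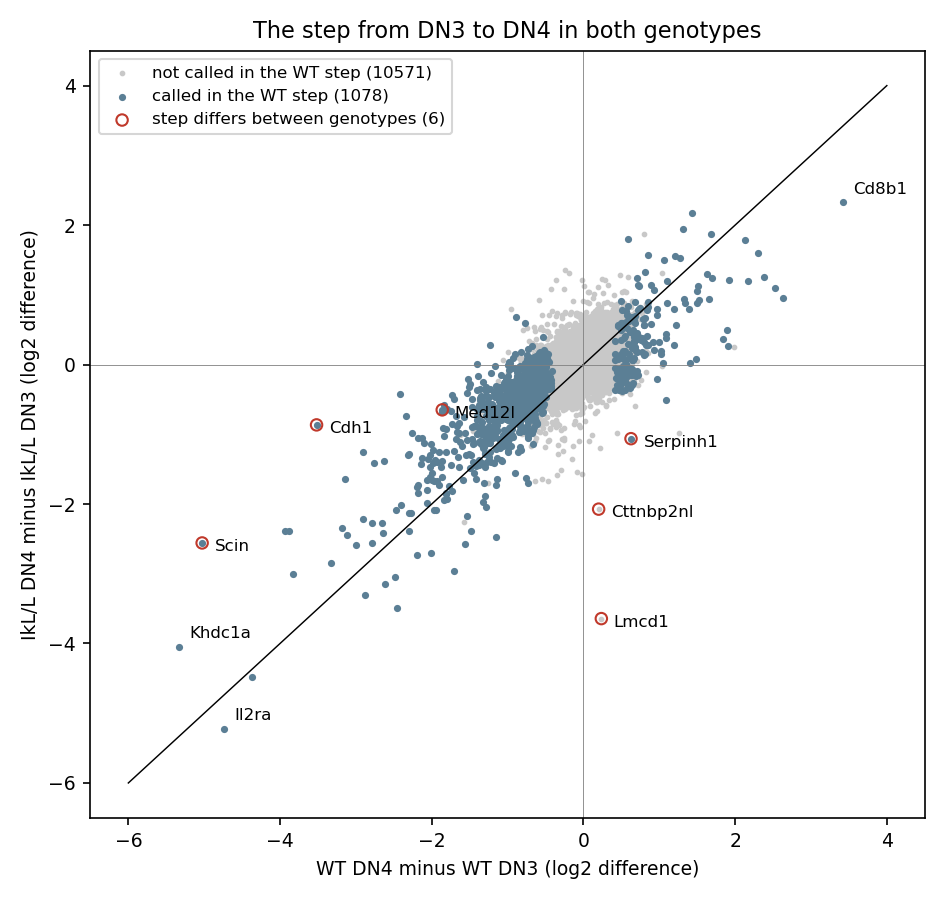
Log2 difference between DN4 and DN3 for each of 11649 tested genes in WT cells (horizontal) and IkL/L cells (vertical), with a line of equal difference, the 1078 genes called in the WT step in dark blue and the 6 genes whose step was called different circled. Most dark points lie on the same side of 0 in both genotypes, and Lmcd1 and Cttnbp2nl lie near 0 in WT cells and far below 0 in IkL/L cells. The WT signals of Lmcd1 and Cttnbp2nl lie under the array median at both stages.

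The next step, from WT DN4 to WT DP, uses the same DN4 arrays, so its values are only set beside those above. It called 6638 of 11649 genes (57%). Cd8b1 went from 9.40 and 9.55 in DN4 to 12.69 and 12.56 in DP cells, and Cd8a from 7.05 and 7.88 to 12.69 and 13.01. Hes1 went on down, from 7.24 and 7.92 to 5.30 and 5.18, and Il2ra from 5.70 and 6.25 to 4.80 and 5.12. Rag1 turned, with 13.75 and 13.83 in DP cells, above both its DN4 and its DN3 signals, and so did Rag2, with 11.28 and 10.89.

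Several genes had their highest WT signal in DN4 cells, division genes among them. Ccne1 read 9.84 and 9.61 in DP cells, Ndc80 8.26 and 7.96 and Cdc6 9.39 and 9.17. Myo6 (4.67 and 4.70), Tktl1 (3.74 and 3.75), Etv5 (3.72 and 3.82), Tox2 (6.70 and 6.83) and Maf (5.38 and 5.73) also had lower signals in DP than in DN4 cells. Of the survival genes, Bcl2 was lower still in DP cells, at 8.10 and 8.24, and Bcl2l1 higher, at 11.04 and 11.32. Socs3 returned to 9.28 and 9.56 and Scn4b to 7.89 and 8.83.

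**Figure D5:**
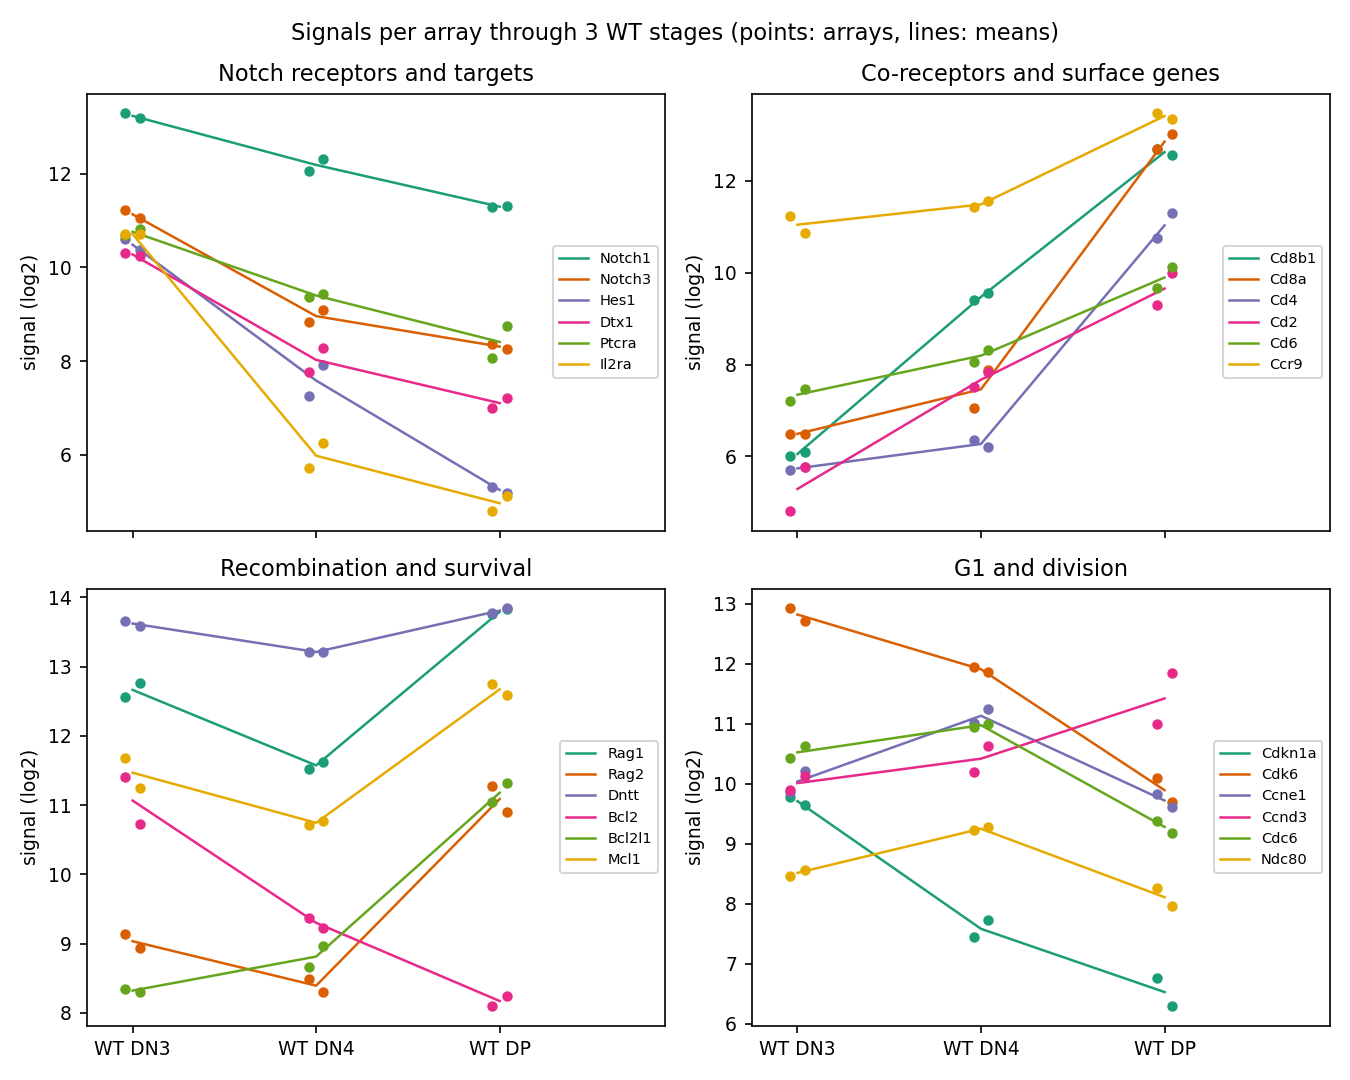
Log2 signal on each WT array (points) and the group means (lines) at the DN3, DN4 and DP stages for 24 genes in 4 panels, each gene with its own probe set, so levels are not compared between genes. The Notch receptor and target genes have a lower mean at each later stage, Cd8b1 rises at both, Cd4 and Cd8a are far higher in DP than in DN4 cells, and Rag1, Rag2, Dntt and Mcl1 dip at DN4.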

How the data were processed

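Affymetrix arrays of 12 thymocyte samples were read from the deposited table of log2 values, which the authors made with RMA, per the submitters' processing notes (version not given in the sources used here). Of 45099 probe sets, 34958 had 1 gene symbol, 932 several and 9209 none, by GEO's platform annotation. For each gene the probe set brightest on average across the 12 arrays was taken. A gene was tested where at least 2 of 12 arrays reached the median of their array, which kept 11649 of 18194 genes. limma 3.58.1 (R 4.3.3, with statmod 1.5.0 for the random block) fitted 1 mean per group over all 12 arrays, with 6 residual and 5.67 prior degrees of freedom. Its p-values were adjusted by Benjamini-Hochberg over all tested genes, and genes under 0.05 were called. Errors marked ± are limma standard errors and intervals are 95% without adjustment. The number of arrays limits the precision. Simulated data of 11649 genes for the WT step had independent normal noise, without the links between genes or same-numbered arrays that real arrays can have. In it 100 genes were changed by 1 and 100 by 2 on the WT DN4 arrays. Of the changes of size 1, 75% were recovered, and 98% of those of size 2, with 10 false calls.

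Named genes were the 12 largest called rises and falls whose groups did not overlap, 25 anchor genes, up to 5 called members of each of 31 lists by size, and the called differences of the step between genotypes. Uncalled list members were given as values. Rbpj, Lfng, Fbxw7, Zap70, Sla, Plcg1, Pdcd1, Dusp2, Spry1, Rora, Ifngr2, Il10rb, Samhd1, Bid and Mns1 lie outside that rule and were picked with their values in view. The members and lists were chosen with earlier results of these data known. No set test was run. Alternatives changed the filter, the probe set rule, the variance prior, array weights, normalization, the replicate block, the samples fitted and the threshold. Promoters were the 250 bases before each RefSeq start.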

Additional observations from a re-analysis of the deposited data

Results flagged for a closer look

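In 6 genes the step from DN3 to DN4 differed between the genotypes by limma's interaction test, given here as the IkL/L step minus the WT step. The Scin signal fell by less in IkL/L cells, with IkL/L signals of 7.01 and 6.44 at DN3 and 4.24 and 4.09 at DN4, and a difference of steps of 2.47 (adjusted p = 0.00221). The Cdh1 signal went from 4.41 and 4.23 to 3.43 and 3.47 in IkL/L cells, with a difference of 2.65 (adjusted p = 0.000214). The DN4 signals of both genes lie under the array median in both genotypes, so their falls are lower limits and were not compared below it.

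Med12l, which encodes a Mediator subunit, read 7.18 and 7.22 against 5.39 and 5.28 in WT cells and 8.14 and 7.95 against 7.44 and 7.34 in IkL/L cells. Its difference of steps was 1.21 (adjusted p = 0.0473). It lost the call in 9 of 12 fits that left out 1 array.

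In 3 genes the IkL/L signal fell while the WT signal did not. The WT DN3 and DN4 signals of Lmcd1 and Cttnbp2nl all lie under the array median, so a fall there may not be visible. For Lmcd1 the difference of steps was -3.88 (adjusted p = 0.000273), and in IkL/L cells its signals went from 10.25 and 9.81 to 6.75 and 6.02. Cttnbp2nl was at 3.82 and 4.09 against 4.37 and 3.95 in WT cells and at 7.65 and 7.43 against 5.45 and 5.48 in IkL/L cells (-2.27, adjusted p = 0.0127). It lost the call in 4 fits, those without WT DN3 replicate 1, WT DN4 replicate 1 or either IkL/L DN4 array. Serpinh1, which encodes a collagen chaperone, rose in WT cells from 5.21 and 5.06 to 5.83 and 5.69 and fell in IkL/L cells from 6.74 and 6.45 to 5.50 and 5.58 (-1.69, adjusted p = 0.0119). It lost the call in 6 fits, those without any of the 4 WT arrays of the step or either IkL/L DN4 array.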

How the results depend on the processing

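Of 1078 calls in the WT step (181 higher, 897 lower), array weights gave 2157 (535 and 1622), the 4 arrays of the step alone 1983 (445 and 1538), and a log2 difference of at least 1 gave 345 (40 and 305). Leaving out 1 of the 12 arrays gave 340 to 1314 calls, 32 to 241 higher and 308 to 1073 lower. Higher genes numbered 101 with a filter at the 75th percentile, 416 after a second quantile normalization and 292 with the pool as a random block. Genes whose step differed between genotypes, 6 at first, numbered 3 with the filter at the 75th percentile or the mean of probe sets, 13 with a trended robust prior or array weights, 12 after quantile normalization, 17 with the random block, 12 without the IkL/L replicate 2 arrays (added after the data were seen) and 3 to 20 with 1 array left out. The causes were not tested.

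Of 109 named called genes, 49 kept the call in all 12 fits with 1 array left out, and 31 to 54 lost it without 1 of the 4 arrays of the step. The mean of probe sets ended 18 of these calls, median-centring 8 and the second quantile normalization 6. Tfrc reversed with the mean of probe sets, from -0.18 to 0.46 (adjusted p = 0.0476).

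The labels give the groups the same replicate numbers without saying what they share. Deviations of same-numbered arrays correlated at 0.317, 0.147 and 0.271 in WT and 0.494, 0.086 and 0.015 in IkL/L cells. In WT cells all 3 were over 0.1, in IkL/L cells 1 of 3 was, and whether the numbers pair the samples is not settled by these correlations. Sex-linked signals went with the replicate numbers. At DN3, DN4 and DP, Eif2s3y read 8.81, 8.39 and 9.01 on IkL/L replicate 1 and 2.82, 3.12 and 2.95 on replicate 2. In WT cells Xist read 12.09, 11.53 and 12.41 on replicate 1 and 11.34, 10.33 and 11.40 on replicate 2. The replicate block within genotype gave 1397 calls, 275 higher and 1122 lower, and 14 differences between genotypes. The block over all arrays gave 1004 (159 and 845) and 6.

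Signals near or under the array median, 5.14 to 5.17, limit the falls that can be seen.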
